A study of Mus musculus with 16 samples.

Results

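The arrays described here are 11 of the 16 in a study of myeloid cells from the lungs of tumour-bearing mice, set out as class B (5 arrays) against class A (6 arrays). Class A holds the arrays titled peritumoral 1, 4 and 7 and tumoral 2, 5 and 8, and class B holds peritumoral 2, 5 and 8 and tumoral 3 and 6. In deposited order these are positions 1 and 2 of every 3 arrays. The remaining 5 arrays, peritumoral 3 and 6 and tumoral 1, 4 and 7, stand at position 3 and are called class C. The classes were chosen from measured expression, after this repeat of 3 had been noticed across the gene values, and all genes of the table count as used in that choice. The difference between the classes is therefore given as a description, with no test. No label names the classes, and the tissue or condition of each is not known.

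All 16 arrays measured total RNA from lung cells of C57BL/6 mice that carried Lewis lung carcinoma, a tumour line of the same strain that was given into the airways. Cells were sorted for CD11c, MHC class II and CD11b together, and the labels call them CD11b+ dendritic cells. By title, 8 arrays came from tumour and 8 from the lung tissue around it, and each class mixes both labels. No label gives the animal, a pool of animals, their age or an untreated lung, so the spread between these arrays may in part be technical. In bulk RNA of a sorted gate, fewer cells of a type and less RNA per cell cannot be told apart.

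CD11b+ myeloid cells of the lung include conventional type 2 dendritic cells and cells that arise from monocytes, some of which take on macrophage properties. Arginase 1 (Arg1) splits arginine into ornithine and urea and is a classical enzyme of alternatively activated and tumour-associated macrophages, where it draws on the arginine that T cells need. Glycoprotein NMB (Gpnmb) is a membrane protein of endosomes and lysosomes that accumulates in macrophages under lipid or lysosomal load.

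The mean of class B was at least 2-fold that of class A for 37 of 19938 genes, which is 0.186% of them, and at least 2-fold lower than it for 28 genes, or 0.14%. Folds here take the deposited values as base 2 logarithms. Of the 37 genes, 24 had every class B array above every class A array, whereas only 6 of the 28 lower genes had every class B array below. Over all genes, 432 (2.17%) had all class B arrays above all class A arrays and 104 (0.522%) had all of them below. The classes overlapped for the great majority of genes, the median difference over all genes was 0.02 on the log2 scale, and 55.5% of all genes were higher in class B on average. The split between directions moved with the scaling. Without overlap, 80.6% of genes were higher in class B on the deposited values and 64.6% after quantile normalization, which gave 431 higher and 236 lower genes. Centring the array medians gave 294 higher and 79 lower genes without overlap, with 78.8% higher. For the 2-fold genes the share higher was 56.9% on the deposited values, 47.3% after quantile normalization and 58.5% after centring.

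One array stood apart within class A. Peritumoral 4 lay at 51.4 on the first principal component, which held 45.8% of the variance, while the class A arrays ran from 10.4 to 51.4, those of class B from -8.4 to 10.2 and those of class C from -38.0 to -25.0. For part of the genes and lists below, a value without it is therefore given too. Where none is given, the class A values and the differences include peritumoral 4. Without peritumoral 4, 48 genes (0.241%) were at least 2-fold higher in class B and 7 (0.0351%) at least 2-fold lower. All class B arrays were then above all class A arrays for 613 genes (3.07%) and below for 258 (1.29%). Of the 37 higher genes 34 stayed past the 2-fold limit, and of the 28 lower genes 4 did.

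**Figure D1:**
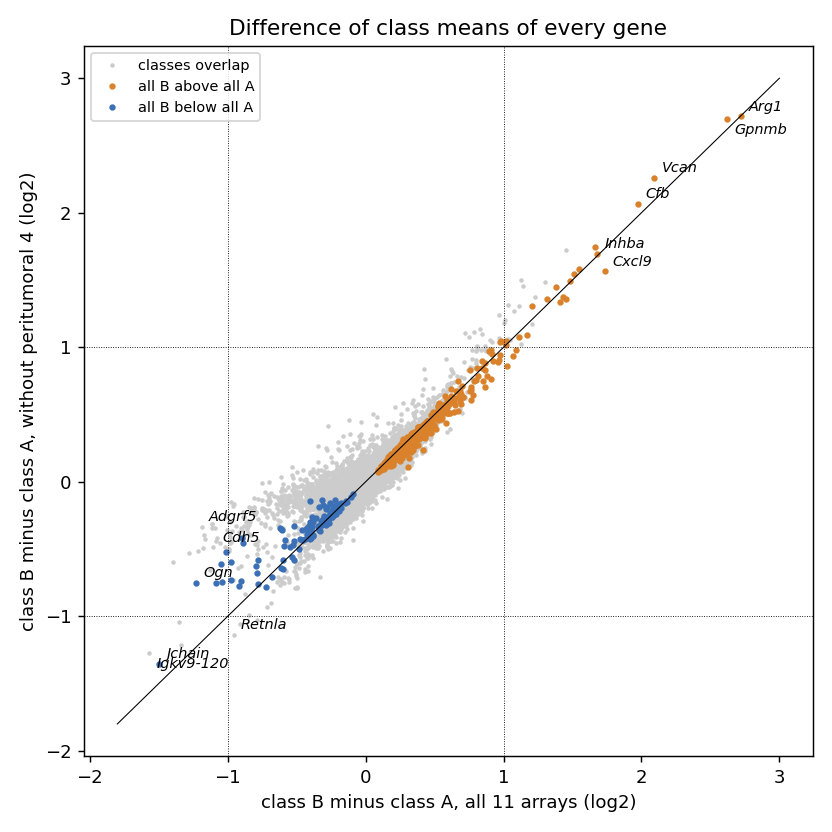
Difference of class means (class B minus class A, log2) of each of the 19938 genes with all 11 arrays (horizontal axis) and without peritumoral 4 (vertical axis), coloured by whether the classes overlap. Arg1 and Gpnmb keep their place (2.72 and 2.62 with all arrays, 2.72 and 2.70 without), whereas many of the genes lower in class B move toward 0.

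Arg1 had the widest difference. Its log2 values in class A were 6.75, 6.25 and 5.94 in peritumoral 1, 4 and 7 and 6.29, 6.35 and 6.16 in tumoral 2, 5 and 8. In class B they were 9.25, 10.57 and 8.49 in peritumoral 2, 5 and 8 and 8.23 and 8.54 in tumoral 3 and 6. Even the lowest class B array, tumoral 3, was above the highest class A array, peritumoral 1, and peritumoral 5 was the highest of class B. The mean was 6.29 ± 0.27 (SD, n = 6) in class A and 9.01 ± 0.95 (SD, n = 5) in class B, a difference of 2.72 or 6.60-fold, and it was 10.32 ± 0.51 (n = 5) in class C.

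Gpnmb followed closely. Class A read 9.07, 9.10 and 8.67 in peritumoral 1, 4 and 7 and 8.62, 8.17 and 8.66 in tumoral 2, 5 and 8. Class B read 11.25, 11.69 and 11.43 in peritumoral 2, 5 and 8 and 11.64 and 10.65 in tumoral 3 and 6. The classes did not overlap, and the class B array nearest to class A was tumoral 6. The means were 8.72 ± 0.34 in class A and 11.34 ± 0.42 in class B, a difference of 2.62 or 6.14-fold, and 11.81 ± 0.29 in class C.

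The next genes in order were Vcan, Cfb, Cxcl9, Inhba, Ly6i, Car6, Tarm1 and Rnf128, with differences from 2.09 down to 1.49 and no overlap. Vcan encodes versican, a matrix proteoglycan. It read 6.83, 7.47, 6.47, 6.19, 6.48 and 6.37 in class A (peritumoral 1, 4 and 7, then tumoral 2, 5 and 8) and 8.99, 10.56, 8.30, 8.33 and 7.48 in class B (peritumoral 2, 5 and 8, then tumoral 3 and 6). The nearest arrays of the 2 classes, peritumoral 4 and tumoral 6, were almost level, while the class means differed by 2.09 (6.64 ± 0.46 against 8.73 ± 1.15). Inhba, the subunit of activin A, was tight in class A at 7.78 ± 0.08 and stood at 9.46 ± 0.56 in class B. Tarm1, an activating receptor of myeloid cells, was likewise tight at 8.81 ± 0.10 against 10.32 ± 0.59. Rnf128, a ubiquitin ligase, differed by 1.49, and Car6, a carbonic anhydrase, by 1.55.

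Within class B the arrays had an order for these genes. In all 10 of the genes just named, Arg1 and Gpnmb included, peritumoral 5 was the highest class B array, and tumoral 6 was the lowest in 5 of them. Of the 37 genes at least 2-fold higher, peritumoral 5 was highest in 25 and tumoral 6 lowest in 19. A choice by high difference favours genes with a high value in a class B array, and no such count was taken over all genes. The number of genes at least 2-fold higher was 27 without peritumoral 5 and 50 without tumoral 6. The mean level of 17 neutrophil markers was also highest of class B in peritumoral 5, at 7.77 against 6.57 to 6.88 in the other class B arrays, and its part in this order was not tested. Without tumoral 6, genes with all class B arrays above class A numbered 787 instead of 432. Class B lay between classes A and C in its mean for 32 of the 37 higher genes and for all 28 lower genes, where 61.9% of all genes had class B between the others.

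**Figure D2:**
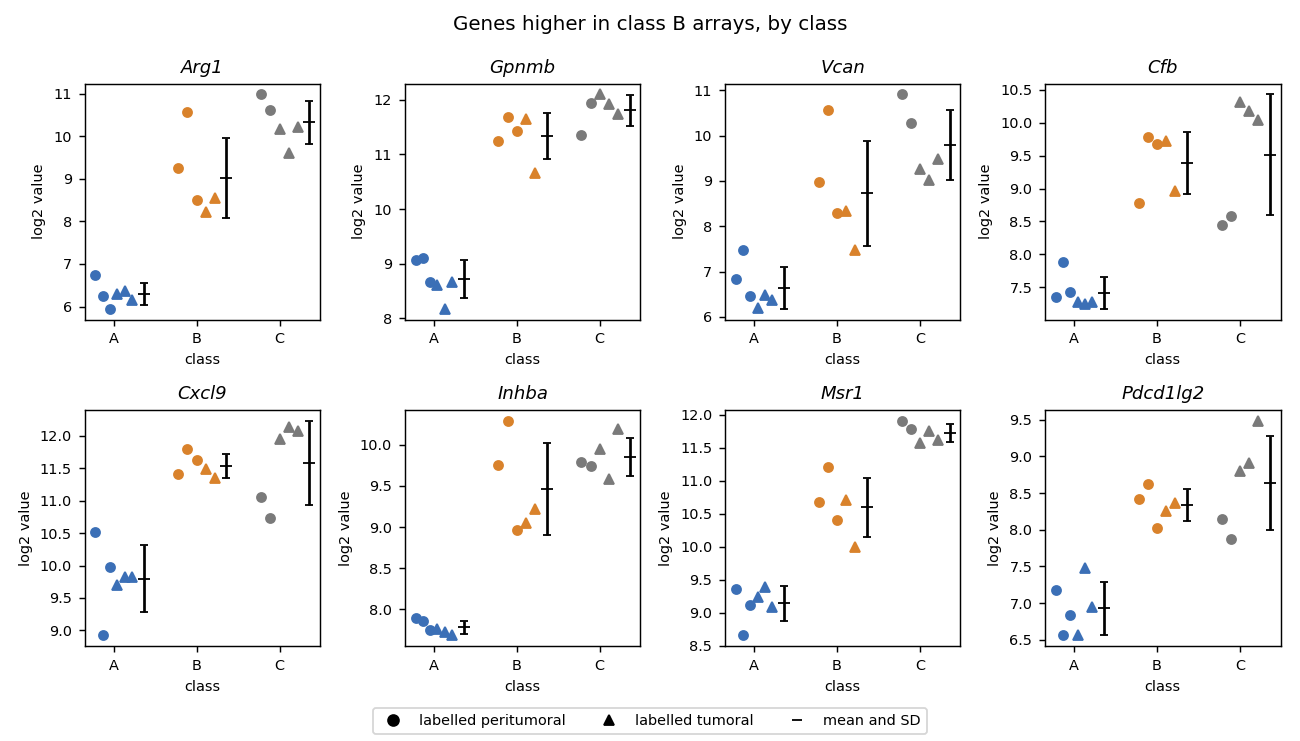
Log2 value of Arg1, Gpnmb, Vcan, Cfb, Cxcl9, Inhba, Msr1 and Pdcd1lg2, 1 panel a gene. Each array of classes A, B and C is a point (marker by label), with the mean and SD of each class. In each panel all 5 class B points lie above all 6 class A points. For Cfb the class C points fall into lower peritumoral and higher tumoral values.

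Genes of arginine metabolism had a median difference of 0.28, beside 0.02 over all genes, and 10 of the 12 measured (of 14 listed) were higher in class B on average, as 55.5% of all genes were. The counts higher on average in the lists that follow are to be read against that same share. Counts without overlap are to be read against the 2.17% of all genes above and 0.522% below. Where peritumoral 4 is left out, the shares to read them against are 3.07% above and 1.29% below. A count of 0 or 1 in a list therefore says little about that list. Of the arginine genes only 3 had no overlap, Arg1 and, at smaller size, Odc1, which turns ornithine into polyamines (0.32), and Slc3a2, a chain of amino acid transporters (0.22). Slc7a2, a carrier of arginine, was 7.70 ± 0.78 in class A and 9.15 ± 0.74 in class B. Its classes overlapped because peritumoral 4 read 9.03, above the 8.47, 8.96 and 8.78 of peritumoral 8, tumoral 3 and tumoral 6. Without peritumoral 4 its difference was 1.72 instead of 1.45. Arg2, the mitochondrial arginase, was 8.40 ± 0.57 against 9.52 ± 0.55, also with overlap.

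Around Gpnmb, the genes of lipid-associated macrophages had a median difference of 0.43 (0.37 without peritumoral 4), and 18 of 21 were higher on average. All class B arrays were above class A for 6 of them, which were Cstb, Ctsb, Fabp5, Gpnmb, Lgals3 and Msr1. Msr1, a scavenger receptor for modified lipoproteins, read 9.36, 8.66 and 9.12 in peritumoral 1, 4 and 7 and 9.24, 9.40 and 9.08 in tumoral 2, 5 and 8. Class B read 10.67, 11.21 and 10.41 in peritumoral 2, 5 and 8 and 10.72 and 9.998 in tumoral 3 and 6. The lowest class B array was thus above the highest class A array, and the means differed by 1.46 (9.14 ± 0.27 against 10.60 ± 0.45). Ctsk, the lysosomal protease cathepsin K, differed by 1.30 and overlapped through the 8.22 of peritumoral 4.

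Lysosomal hydrolases and proton pump subunits were higher on average in 23 of 24 measured genes, with a median of 0.30 (0.25 without peritumoral 4). There was no overlap for 10 of them (Acp5, Atp6v0d1, Atp6v1a, Atp6v1b2, Ctsc, Ctsz, Gla, Lamp1, Lamp2 and Npc1), although their differences were small. Acp5, an acid phosphatase of macrophages and osteoclasts, differed by 0.65 and Npc1, which exports cholesterol from lysosomes, by 0.45. Atp6v0d2, a pump subunit of macrophages, differed by 1.12 with overlap and by 1.5 without peritumoral 4, which read 10.80. Cholesterol efflux genes had 1 of 9 without overlap (Nr1h3, the receptor LXR alpha), and synthesis of sterols and fatty acids had 0 of 17 and a median of -0.11.

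Not all genes of alternative activation went with Arg1. The 17 genes of the type 2 activation list had a median of 0.04, and Pdcd1lg2, the PD-1 ligand PD-L2, alone had no overlap (6.93 ± 0.36 against 8.34 ± 0.22). Retnla, a secreted protein of alternatively activated macrophages and a textbook companion of Arg1, ran the other way. It read 11.74, 10.97, 12.30, 12.07, 12.003 and 12.23 in class A and 10.71, 9.64, 11.45, 11.35 and 11.51 in class B, in the array order used for Vcan. Peritumoral 4 alone among the class A arrays reached into the class B range, and the class A and B means were 11.89 ± 0.49 and 10.93 ± 0.79. The difference was -0.95, or -1.14 with no overlap when peritumoral 4 was left out, and the class C mean was 7.96 ± 0.99. Peritumoral 5, highest in class B for Arg1, was the lowest in class B for Retnla. Chil3, a chitinase-like protein of the same state, was higher in class B as Arg1 was. It differed by 0.72, or by 1.10 without peritumoral 4, with overlap both times.

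Matrix genes were higher on average in 18 of 24, beside 55.5% of all genes, with a median of 0.39, and 6 of them were past 2-fold. There was no overlap for 7, which were F10, Fn1, Mmp14, Mmp19, Tgfbi, Timp1 and Vcan. F10, coagulation factor X, stood at 8.25 ± 0.17 and 9.57 ± 0.42, and Timp1, an inhibitor of metalloproteinases, at 7.72 ± 0.59 and 9.15 ± 0.68. Of 24 growth factor genes with a median of 0.16, Grn, Inhba and Mif had no overlap. Mif, a cytokine that restrains macrophage migration, was 10.78 ± 0.05 in class A and 11.48 ± 0.27 in class B.

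Interferon-stimulated genes were higher on average in 25 of 26 measured, with a median difference of 0.40 (0.46 without peritumoral 4). All class B arrays were above class A for 7, which were Cxcl9, Cxcl10, Gbp5, Ifit2, Oasl1, Oasl2 and Rsad2, and for 13 without peritumoral 4. Many of these genes carry the interferon-stimulated response element, where IRF and STAT factors bind. Its core was searched as GAAANNGAAA on both strands in the 250 bases before the RefSeq start of each gene (GRCm38.p6). It was found in 3 of the 7 genes, in 6 of the 13 other measured interferon genes with a promoter in the table, and in 2.98% of 32851 promoters of that length. A gene counted when any of its promoters matched, whereas the 2.98% is a share of promoters, so the units differ. The 3 promoters are shown 5′ to 3′ on the strand of the gene, with the match in capitals, to place the element against the start, which follows the last base. Cxcl10 lies at chr5:92348890-92349139 (minus strand), Gbp5 at chr3:142496684-142496933 (plus strand) and Rsad2 at chr12:26456453-26456702 (minus strand).
Cxcl10: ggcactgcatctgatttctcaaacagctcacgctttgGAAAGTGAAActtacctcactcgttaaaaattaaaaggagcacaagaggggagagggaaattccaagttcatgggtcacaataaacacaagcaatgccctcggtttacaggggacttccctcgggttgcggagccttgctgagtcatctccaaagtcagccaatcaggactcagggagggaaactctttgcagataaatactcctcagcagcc
Gbp5: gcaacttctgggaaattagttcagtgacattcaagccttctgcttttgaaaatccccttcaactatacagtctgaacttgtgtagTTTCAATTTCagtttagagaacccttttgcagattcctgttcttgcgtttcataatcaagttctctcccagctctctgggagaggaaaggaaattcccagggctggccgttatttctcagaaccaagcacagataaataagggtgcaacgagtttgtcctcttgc
Rsad2: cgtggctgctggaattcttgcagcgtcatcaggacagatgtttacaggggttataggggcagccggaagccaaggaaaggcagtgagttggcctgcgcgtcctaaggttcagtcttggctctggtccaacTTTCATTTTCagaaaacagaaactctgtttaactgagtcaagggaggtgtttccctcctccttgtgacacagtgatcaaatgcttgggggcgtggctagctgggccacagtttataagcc
The match reads on the gene's strand in Cxcl10 and on the opposite strand in Gbp5 and Rsad2, and its first base lies at -213, -165 and -120 from the start. A match is a description of the letters and no evidence of binding.

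Among these genes Rsad2, the antiviral enzyme viperin, was lowest in class A at 7.52 in tumoral 2 and highest at 8.24 in peritumoral 4, while class B ran from 8.98 in peritumoral 2 to 9.67 in peritumoral 8. Peritumoral 8, not peritumoral 5, was thus the highest class B array for it. Its means differed by 1.38 (7.89 ± 0.26 against 9.27 ± 0.27). Ifit2, which blocks viral translation, differed by 1.01 (6.97 ± 0.20 against 7.98 ± 0.36) and was also highest in peritumoral 8. Cxcl9, a CXCR3 ligand that draws T cells and is induced by interferon gamma, read 10.52, 8.92, 9.98, 9.70, 9.82 and 9.83 in class A and 11.41, 11.80, 11.62, 11.49 and 11.34 in class B, in the same array order. Peritumoral 4 was the lowest of class A, and the difference was 1.74 with it and 1.56 without it. The other CXCR3 ligands, Cxcl10 and Cxcl11, differed by 0.49 and 0.63 without overlap. Of 14 CXC chemokines 4 had no overlap (Cxcl3, Cxcl9, Cxcl10 and Cxcl11) and of 13 CC chemokines 1 (Ccl6).

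Cfb, factor B of the alternative complement pathway, was the only one of 14 complement genes without overlap. It read 7.35, 7.88, 7.43, 7.27, 7.25 and 7.28 in class A and 8.78, 9.78, 9.68, 9.72 and 8.96 in class B. In class C it was 8.44 and 8.58 in peritumoral 3 and 6 and 10.31, 10.19 and 10.05 in tumoral 1, 4 and 7, so that the class C arrays fell on both sides of class B. Ly6i, a membrane protein of the Ly6 family, also differed by label in class C, with 8.07 and 7.41 in peritumoral 3 and 6 and 9.73, 9.68 and 10.19 in tumoral 1, 4 and 7. Its means were 8.24 ± 0.34 in class A, 9.90 ± 0.21 in class B and 9.02 ± 1.21 in class C. These 2 class C patterns were singled out after the values were seen.

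All 14 measured glycolysis genes were higher on average in class B, with a median of 0.42 (0.47 without peritumoral 4), and 7 had no overlap (Aldoa, Hk3, Pfkl, Pfkp, Pgam1, Pgk1 and Pkm). Pgam1, phosphoglycerate mutase, was 10.06 ± 0.18 in class A and 10.84 ± 0.29 in class B. Of 27 hypoxia genes 21 were higher on average, beside 55.5% of all genes, with a median of 0.13, and 4 had no overlap (Egln3, Ero1a, Hif1a and Ndrg1). Egln3, an oxygen-sensing prolyl hydroxylase induced in hypoxia, read 7.22, 8.49 and 7.02 in peritumoral 2, 5 and 8 and 6.73 in both tumoral 3 and 6, against 6.02 to 6.67 in class A. Oxidative phosphorylation was not lower, since all 25 of its genes were higher on average with a median of 0.21 and 5 had no overlap. Cell cycle genes were higher on average in 31 of 32 with a median of 0.33. Only Aurka, Cdk1 and Mcm4 had no overlap, and Cdk1, the kinase of mitotic entry, differed by 0.55. Among antioxidant genes Slc7a11, the cystine carrier, differed by 0.92 (9.56 ± 0.37 against 10.48 ± 0.34) and Ftl1, a ferritin chain, also had no overlap. Immediate-early and stress genes had a median of -0.14, with 21 of 26 lower on average and 0 without overlap.

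Dendritic cell markers, co-stimulation genes and MHC class II genes had small differences, more of them lower than higher in class B on average. Itgax, which encodes CD11c, was 11.58 ± 0.26 in class A and 11.60 ± 0.07 in class B, and H2-Ab1, an MHC class II chain, 13.30 ± 0.11 and 13.26 ± 0.04. Itgam, which encodes CD11b, differed by 0.30 with overlap and by 0.14 without peritumoral 4. All 3 genes of the sort overlapped between the classes. The files hold no detection calls that would say which genes are present. Of 12 MHC class II genes 8 were lower on average with a median of -0.04, and Ctss was higher and H2-Ob lower without overlap. H2-Ob, a chain of H2-O, which restrains peptide loading by H2-M, stood at 11.09 ± 0.14 against 10.49 ± 0.22. Of 24 co-stimulation genes 16 were lower on average with a median of -0.10, and 0 had no overlap. Conventional dendritic cell markers were lower on average in 13 of 18, with a median of -0.15 and 0 without overlap. Without peritumoral 4 only 2 of the 18 were higher, the median was -0.21, and 3 were lower without overlap. Inhibitory genes had a median of 0.12 over 21, and Cd274, the PD-1 ligand PD-L1 (0.59), Pdcd1lg2 (1.41) and Tnfrsf14 (0.40) had no overlap.

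Monocyte markers had a median of 0.17 over 13 genes, with Fn1 and Vcan higher without overlap. On average 3 of the 13 were lower, among them Ace, which differed by -0.93 with overlap and by -0.64 without peritumoral 4. Macrophage markers had a median of 0.07 over 21 genes and included genes of both directions: Fcgr1, the high-affinity IgG receptor CD64, was higher without overlap (8.74 ± 0.40 against 9.65 ± 0.29) and Cd163, the haemoglobin scavenger receptor, was lower without overlap (7.71 ± 0.16 against 7.10 ± 0.20). The part of the mix of cells in these differences was not tested.

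The pattern receptors and the rest of the marker lists had small medians. Clec4n and Clec4e, the fungal and mycobacterial sensors Dectin-2 and Mincle, differed by 1.02 and 0.97 in a list of 18 C-type lectins whose median was 0.05, and -0.06 without peritumoral 4. Medians were 0.24 for complement, 0.22 for CC chemokines, 0.21 for CXC chemokines, 0.18 for cholesterol efflux, 0.13 for MHC class I presentation and for antioxidant genes, 0.12 for Fc receptors, 0.10 for Toll-like receptors, 0.05 for inflammatory cytokines and -0.07 for chemokine receptors. Without peritumoral 4 they were, in the same order, 0.11, 0.17, 0.13, 0.23, 0.10, 0.12, 0.05, 0.02, 0.06 and -0.02. Type 1 dendritic cell markers had a median of -0.08 over 14 genes. Plasmacytoid dendritic cell markers had -0.11 over 8 (0.02 without peritumoral 4), with 1 gene, the receptor Siglech, lower without overlap (7.20 ± 0.14 against 6.88 ± 0.04). T cell markers had -0.08 over 14, with Cd2 and Cd4 lower without overlap, at -0.78 and -0.46. Without peritumoral 4 the T cell median was 0.11, and 11 of the 14 were higher on average. Alveolar macrophage markers had -0.13 (0.03 without peritumoral 4), keratin and carcinoma -0.11, eosinophil, basophil and mast cell -0.05, neutrophil -0.03 (0.08 without peritumoral 4) and erythrocyte and platelet 0.06.

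**Figure D3:**
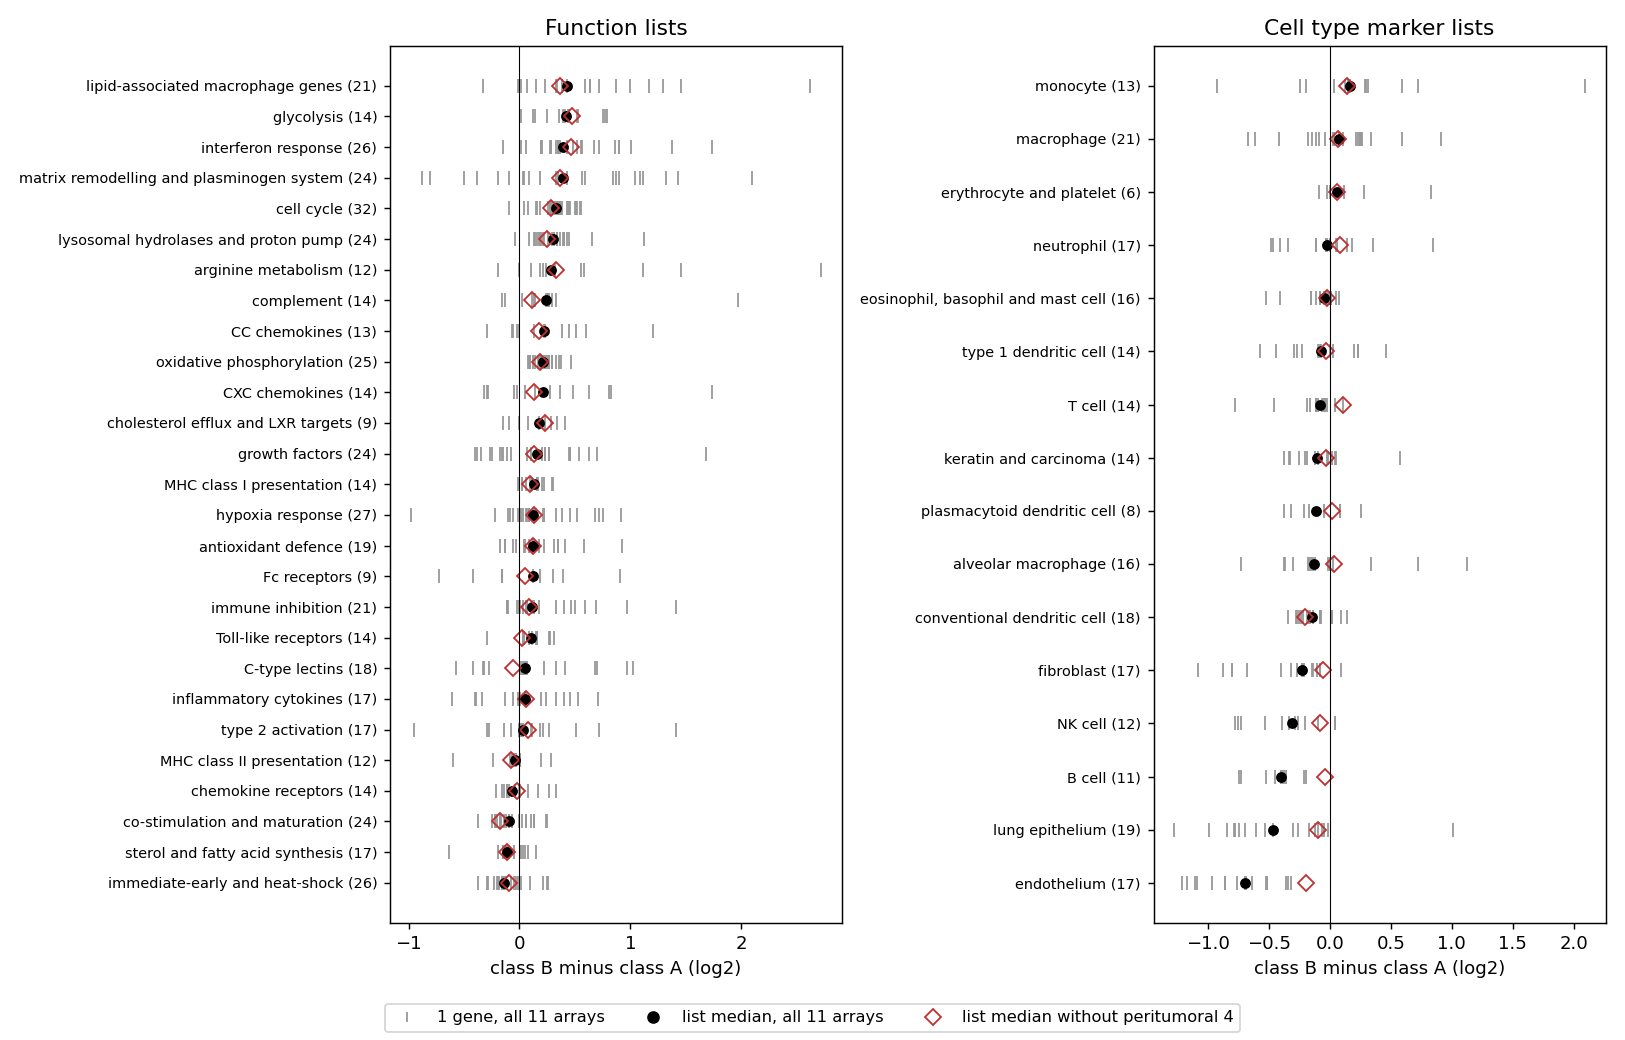
Difference of class means (class B minus class A, log2) for each measured gene of the function lists and the cell type marker lists (grey ticks), with the list median over all 11 arrays (filled circles) and without peritumoral 4 (open diamonds). Endothelial, lung epithelial, B cell and NK cell medians lie below 0 with all arrays (-0.70, -0.47, -0.40 and -0.31) and move to -0.20, -0.10, -0.04 and -0.08 without peritumoral 4.

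Among the genes lower in class B, Jchain stood first of those without overlap. It encodes the joining chain of polymeric IgM and IgA, known from plasma cells. Class A read 7.30, 8.54 and 7.64 in peritumoral 1, 4 and 7 and 8.15, 7.59 and 7.67 in tumoral 2, 5 and 8. Class B read 6.64, 6.91 and 5.98 in peritumoral 2, 5 and 8 and 5.99 and 6.08 in tumoral 3 and 6. Peritumoral 4 was the highest array, but tumoral 2 followed, and the difference was -1.50 with it and -1.35 without it (2.82-fold lower in class B with it). The class C mean was lower again, at 5.14 ± 0.27. Of the 7 genes at least 2-fold lower without peritumoral 4, 3 belong to immunoglobulins (Jchain and a pair of kappa variable segments), and the others were Cd209f, Hepacam2, P3h2 and Retnla. These were named after their values were seen. B cell markers, as a list, had a median of -0.40 over 11 genes and -0.04 without peritumoral 4.

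The other 9 of the 10 lowest genes without overlap were Ogn, Inmt, Fhl1, Itga8, Pcolce2, Adh1, Nedd4, Hpgd and Mamdc2, with differences from -1.23 to -0.90. Peritumoral 4 was the highest class A array in all 10, Jchain included, and in 27 of the 28 genes at least 2-fold lower. A choice by low difference favours genes with a high value in a class A array, and no such count was taken over all genes. Without peritumoral 4 the 9 differences ran from -0.78 to -0.52. Ogn, osteoglycin of connective tissue, read 10.08 in peritumoral 4 and 6.67 to 8.09 in the other class A arrays, against 6.28 to 6.59 in class B. Hpgd, which inactivates prostaglandin E2, read 11.17, 12.03, 11.34, 11.04, 11.24 and 11.07 in class A and 10.15, 10.10, 10.54, 10.38 and 10.81 in class B. Its difference of -0.92 was -0.78 without peritumoral 4. Inmt, an indole methyltransferase, differed by -1.08 with peritumoral 4 and by -0.75 without it.

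**Figure D4:**
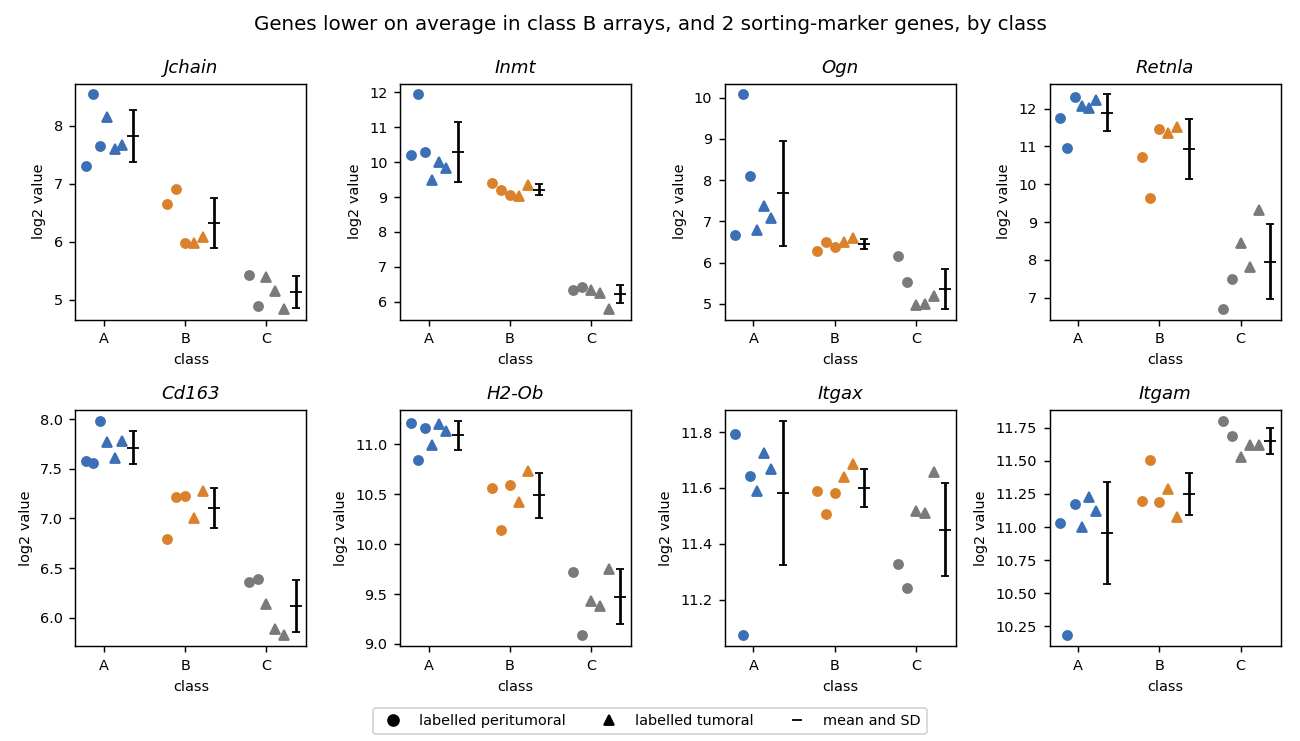
Log2 value of Jchain, Inmt, Ogn, Retnla, Cd163, H2-Ob, Itgax and Itgam, drawn as for the higher genes. Each array is a point, with the mean and SD of each class. Peritumoral 4 is the highest class A point for Jchain, Inmt and Ogn and the lowest for Retnla, Itgax and Itgam. Class C lies lowest on average in all panels but that of Itgam, for example at 5.14 for Jchain and 6.22 for Inmt.

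Of the 28 genes at least 2-fold lower, 22 overlapped between the classes, and markers of other lung cells were among them. Tek, the endothelial receptor of angiopoietins, read 11.23 in peritumoral 4, 8.31 in peritumoral 7 and 5.85 to 6.23 in the other class A arrays, against 5.62 to 6.92 in class B. Cyp2f2, an enzyme of club cells, read 12.38 in peritumoral 4 and 9.43 in peritumoral 7, against 6.90 to 7.88 in class B. Their differences of -1.11 and -1.28 were -0.31 and -0.53 without peritumoral 4. Of 19 lung epithelial genes 18 were lower on average and 1, Cdh1, was higher, by 1.01 with overlap. Without peritumoral 4, 5 of the 19 were higher, and Cdh1 differed by 1.20 without overlap. All 17 endothelial genes were lower on average, 4 of them past 2-fold, but 0 had no overlap. Their mean level was 10.50 in peritumoral 4, 6.85 to 8.40 in the other class A arrays and 6.81 to 7.33 in class B. Without peritumoral 4 and 7 the endothelial median was 0.03. Lung epithelial genes had a mean level of 9.60 in peritumoral 4, 7.41 to 8.05 in the rest of class A and 7.39 to 7.70 in class B. Fibroblast genes had 8.92, 7.14 to 7.66 and 7.04 to 7.30, NK cell genes 7.83, 6.05 to 6.20 and 5.95 to 6.12, and B cell genes 8.84, 6.73 to 7.03 and 6.64 to 6.96, in the same order. Neutrophil genes had 7.78, 6.52 to 7.07 and 6.57 to 7.77, with the highest class B value in peritumoral 5. The level of Epas1, the endothelium-rich HIF-2 alpha of the hypoxia list, was 12.47 and 10.68 in peritumoral 4 and 7, and its difference of -0.98 was -0.30 without peritumoral 4 and 0.27 without both. The part of these markers in the other differences was not tested.

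Each label holds both classes, so the difference could be read in each label separately. Arg1 differed by 3.12 among the peritumoral arrays (3 of class B against 3 of class A) and by 2.12 among the tumoral arrays (2 against 3), and Gpnmb by 2.51 and 2.67. All 37 genes at least 2-fold higher were higher in both labels, 20 of them past 2-fold in both. Of the 28 lower genes 27 were lower in both labels, but only 3 were past 2-fold in both. Both sets were picked by the difference over these same arrays, and that choice favours the same sign in both labels. Jchain differed by -1.32 and -1.77, whereas Tek differed by -2.14 among the peritumoral arrays, which hold peritumoral 4 and 7, and by -0.23 among the tumoral ones. Across the 19938 genes, which are not independent replicates, the differences in the 2 labels had a Pearson correlation of 0.45, or 0.54 without peritumoral 4. The classes were noticed on these same arrays, so the likeness of the labels is no independent support.

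**Figure D5:**
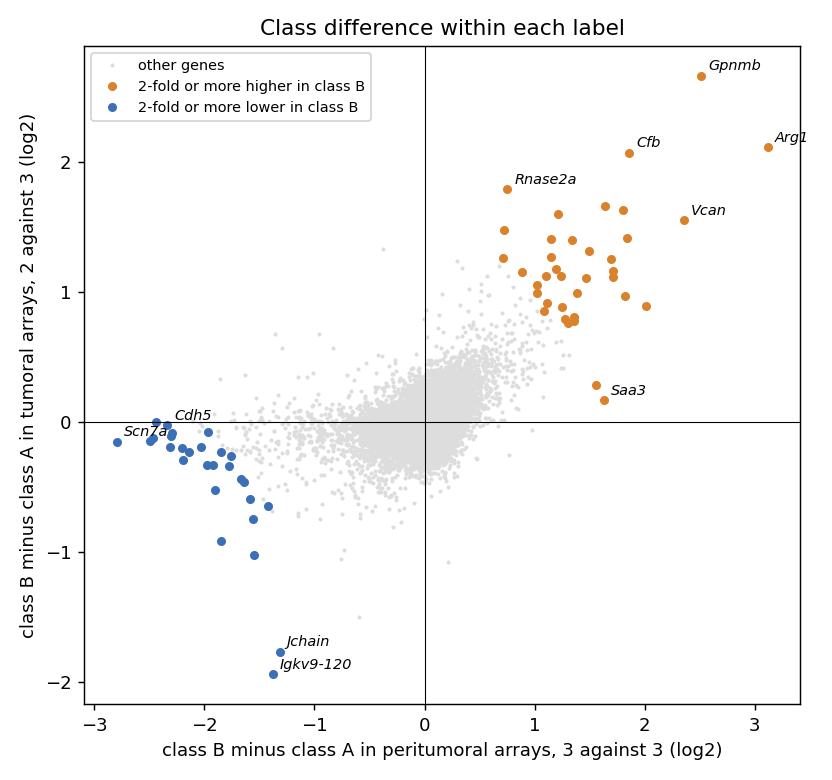
Class B minus class A (log2) of each gene among the peritumoral arrays (horizontal axis, 3 against 3) and among the tumoral arrays (vertical axis, 2 against 3), with the genes at least 2-fold higher or lower over all 11 arrays coloured. Arg1 lies at 3.12 and 2.12 and Gpnmb at 2.51 and 2.67, while several of the lower genes have large differences only among the peritumoral arrays, such as Tek at -2.14 and -0.23.

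The labels, which the choice of classes did not use, could be tested inside the classes. With class as a term, limma with Benjamini-Hochberg adjustment called 0 of 19938 genes (0%) different between tumoral and peritumoral arrays at an adjusted p under 0.05, with 8 residual degrees of freedom. Before adjustment 1295 genes had a p under 0.05, and no gene had an adjusted p below 0.698. Arg1 was lower in tumoral arrays by 0.49 ± 0.32 (SE, limma adjusted p = 0.708) and Gpnmb by 0.40 ± 0.17 (SE, limma adjusted p = 0.698), so neither passed. The 5 genes with the smallest p were Trav12-2 (-0.32), Pde3b (0.51), Hspb1 (-1.74), Lrit2 (0.30) and Snord38a (0.73, all as log2 tumoral minus peritumoral), each with a limma adjusted p of 0.698. Hspb1, a small heat-shock protein, averaged 10.28 in peritumoral and 7.98 in tumoral arrays of class A and 9.10 and 8.06 in class B. A limma test of whether the label difference itself differed between the classes called 0 genes (0%), and 293 had a p under 0.05 before adjustment. The 5 with the smallest p were Krtap31-2 (-0.65), Olfr1110 (-0.57), Olfr704 (-0.67), Mir676 (-0.59) and Polg2 (0.52, all as the log2 label difference in class B minus that in class A), each with a limma adjusted p of 0.9997. An adjusted p that misses the limit does not show that the labels were alike.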

How the data were processed

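The authors deposited a table of 28853 probe sets by 16 arrays, with values from 2.31 to 14.33, and these were read as log2 expression. How they were background-corrected and normalized, and their log base, is not given in the sources used here. Scanner files were not used here. Per the labels' protocols, cDNA was made with an Ambion WT kit and carried a biotin label. Array medians ran from 6.75 to 6.95, and no 2 arrays held the same values (r over genes 0.934 to 0.997). For arrays, their number limits the precision.

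Probe sets were named from the platform annotation (21789 with 1 symbol, 1621 with several, 5443 with none). Only those with 1 symbol were used, and the brightest of a gene's probe sets was kept, which left 19938 genes. Of 732 genes in 43 lists, 670 were measured. Of the others, 21, such as Gapdh, had only probe sets of several genes and 41, such as Spp1, had no named probe set. The classes, gene lists and alternatives were chosen with earlier results of these data known.

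The difference is the mean of class B minus that of class A. Without overlap means that all arrays of a class lie on the same side of all arrays of the other. Genes named are the 10 highest and 10 lowest by difference without overlap, up to 3 genes of each list by size, the genes of the sort, and the 5 smallest p-values of each label test. Others were named after their values were seen. Members without overlap are listed above for most lists. Those not named above were Osm (higher in class B) and Il18 (lower) of the inflammatory cytokines and Tap1 (higher) of MHC class I presentation. Met (higher) of keratin and carcinoma, Muc1 (lower) of lung epithelium and Fcrla (lower) of the B cell markers were the others. Labels were tested with limma 3.58.1 in R 4.3.3 (lmFit, eBayes, Benjamini-Hochberg over 19938 genes, limit 0.05), after a test on simulated data. Motifs were searched in RefSeq promoters of GRCm38.p6. Other scalings, fold limits, filters and left-out arrays were tried.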

Additional observations from a re-analysis of the deposited data

Results flagged for a closer look

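For 108 of the genes named, each class was searched for an array apart from the rest by Dixon's gap ratio at the 95% critical value. Chance alone passes it in about 5% of groups, and 22 of 216 groups of arrays (10.2%) had such an array. In 18 of them the array was peritumoral 4 in class A. The 18 share that array, and 5 of them (Adh1, Fhl1, Hpgd, Inmt and Itga8) are among the 10 lowest genes by difference, a choice that a high value in peritumoral 4 favours. They are therefore values of an array already seen to stand apart and no separate evidence of it.

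Peritumoral 4 was the highest of class A for Adh1 (10.29, others up to 8.32), Cd2 (9.69, others up to 8.69), Cfb (7.88, others up to 7.43), Ctsk (8.22, others up to 7.33), Fhl1 (11.03, others up to 8.85), Hpgd (12.03, others up to 11.34), Inmt (11.94, others up to 10.30), Itga8 (9.48, others up to 7.95) and Oasl1 (8.54, others up to 8.17). It was the lowest for Ctsc (11.95, others from 12.22), Ctss (11.47, others from 11.89), Hepacam2 (8.23, others from 9.51), Lamp2 (11.27, others from 11.42), Lgals3 (11.45, others from 11.78), P3h2 (9.17, others from 9.97) and Pfkp (9.89, others from 10.36). It was also the lowest for Itgam (10.18, at least 0.82 below the others) and Itgax (11.07, others from 11.59), which encode the sort markers CD11b and CD11c. The other 4 groups were Atp6v0d1, low in tumoral 2 of class A (10.09, others from 10.25), Clec4e, low in peritumoral 1 of class A (9.43, others from 10.30), Egln3, high in peritumoral 5 of class B (8.49, others up to 7.22), and Mcm4, high in tumoral 3 of class B (9.14, others up to 8.85).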

How the results depend on the processing

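Of 50 genes without overlap named by the rule, 0 changed sign under the 19 alternatives. For such genes most alternatives could not change it. Leaving out arrays or taking same-number differences cannot reverse classes that do not overlap, and fold limits and the level filter leave a gene's value as it is. Only other scalings and the mean of probe sets could have changed a sign. Some named genes with overlapping classes did change sign, while others kept it. By same-number differences, Cyp2f2 was 0.28 instead of -1.28, Tek 0.54 instead of -1.11 and Epas1 0.66 instead of -0.98. Of 2273 recomputed gene values, 15 moved by 1 SD or more. Of the list medians, 12 of 731 moved as far, and 15 lists changed sign under at least 1 alternative. A limit of 1.5-fold gave 152 higher and 190 lower genes, and a limit of 4-fold gave 3 and 0. Genes above the median level only gave 10 that were 2-fold lower. Quantile normalization gave 236 with all class B arrays below class A and 431 with all above. With array medians centred the counts were 79 below and 294 above. Without peritumoral 4 and 7, 6 genes were 2-fold lower, 681 had all class B arrays above class A and 299 below, and the limma interaction called 1 gene, Klk1b11 (adjusted p = 0.0315, and 0.9997 with all arrays). Leaving out each array in turn gave 27 to 50 genes 2-fold higher, 7 to 69 lower, 455 to 787 all above and 118 to 295 all below, and 0 called by label or interaction. The 2-fold lower count was 56 without peritumoral 1, 7 without peritumoral 4, 13 without peritumoral 7, 67 without tumoral 2, 67 without tumoral 5, 69 without tumoral 8 and 50 without peritumoral 5. The count all above was 675 without peritumoral 1 and 787 without tumoral 6. The count all below was 258 without peritumoral 4, 295 without tumoral 2, 157 without peritumoral 2 and 196 without tumoral 6. Fewer arrays make it easier for classes not to overlap. Besides that, the cause was not tested.

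The classes share array numbers 2, 5 and 8, each peritumoral in class B and tumoral in class A. The deviations of same-number arrays from their group means correlated at 0.25, 0.19 and 0.08. No such value was taken for arrays of different numbers, and no label gives the animal. Whether same-number arrays share more than a number is therefore not known. With the replicate number as a block, 67 genes were 2-fold higher and 13 lower, and limma without a class term called 640 genes by label. In those pairs label and class are the same contrast, so the 640 calls cannot be told apart from the class difference and do not bear on the label.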
